A study of Talpa occidentalis with 6 samples.

Results

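Broad domains in which chromatin of the testicular portion of the mole ovotestis was more open than that of the ovarian portion were described: 951 domains made of 1758 of 19156 windows of 100 kb. Open chromatin had been profiled by ATAC-seq at postnatal day 7 in the Iberian mole, Talpa occidentalis, of wild-type genotype, in the testicular part of the ovotestis, in the testis and in the ovarian part of the ovotestis, with 2 samples of each tissue. Each tissue is given as 1 genome segmentation on the assembly talOcc4 that pools both samples, so no value per sample, no spread between samples and no test between tissues could be had. The labels do not say whether the 2 samples of a tissue came from different animals or whether animals were pooled. Each segmentation assigns every 200 bp bin to 1 of 5 numbered states, ordered from state 1, drawn in red, to state 5, drawn in white.

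The level of a window is the percentage of its bins in states 1 to 3, which are called open here, while states 4 and 5 are called closed. Windows were laid from position 0 on the 16 scaffolds numbered 1 to 17 without scaffold 15, and kept where at least 80% was segmented. The domains were chosen by the levels of both ovotestis portions: a window belongs to a domain where the testicular portion exceeds the ovarian portion by 20 percentage points or more, and adjoining windows were joined. The values of both portions inside the domains are therefore a description of the choice. The testis level was not used in the choice, but windows in which the testicular portion lay below the margin could not be chosen. The library numbers in the testis titles do not adjoin those of the portions, which are consecutive. The labels do not say whether the testis libraries were prepared apart from those of the portions. If they were, tissue and preparation cannot be told apart for the testis. With 1 pooled value per tissue, whether the testis or any position shows a difference beyond the spread between animals was not tested.

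Female moles of this genus carry ovotestes in place of ovaries. In the ovotestis an ovarian portion with oocytes and follicles adjoins a testicular portion that holds cords and abundant androgen-producing Leydig cells but lacks germ cells. This is a general description, and which of these cells and structures were present at postnatal day 7 was not checked. ATAC-seq uses a transposase that inserts adapters into accessible DNA: sharp, strong signal marks promoters and enhancers, and weaker signal spread over long stretches is known from less condensed chromatin. In bulk tissue, a lower level cannot be told apart between fewer cells of a type and less accessible chromatin per cell. The labelled tissues were not checked against marker genes, because no gene positions on talOcc4 were used here.

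The domains covered 175.8 Mb, or 9.18% of the windows, and most were short. Of the 951 domains, 600 were a single window, 169 had 2 windows, 121 had 3 or 4, and 61 had 5 or more. The 61 longest held 426 windows, 24.2% of the total. Windows in the opposite direction, where the ovarian portion exceeded the testicular portion by the same margin, numbered 941, or 4.91% of all windows. Domain windows outnumbered windows of the opposite direction on 14 of the 16 scaffolds. Scaffold 12 had the highest share of its windows in domains, 20.6% (213 of 1034), followed by scaffold 10 with 14.2% and scaffold 9 with 13%. Scaffold 2 had the lowest share, 4.76%.

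Median levels of the domain windows lay above those of the other windows in the testicular portion and testis and below them in the ovarian portion. The median level of the domain windows was 55.2% in the testicular portion, 46.6% in testis and 25.4% in the ovarian portion. In the 17398 other windows the medians were 32.4% in the testicular portion, 35.8% in testis and 34.2% in the ovarian portion. The testis, whose level was not used in the choice, thus had a median 10.8 points higher in the domain windows than in the others. Its level exceeded the median of all windows in 72.4% of the domain windows (Wilson 95% interval 70.2% to 74.4%), against 49.7% of all windows. The interval covers counting error only, and neighbouring windows are not independent. On 15 of the 16 scaffolds the testis median was higher in the domain windows than in the others. The exception was scaffold 17, with 38.1% in the domain windows and 44.4% in the others. These testis comparisons are not free of the choice. The lowest level of the testicular portion in a domain window was 22.2%, and its lower quartile over all windows was 22%. Windows less open than this in the testicular portion could only fall among the others. How much of the testis difference this accounts for was not tested. Within 10 Mb of a scaffold end the order of the testis medians was turned, with 44.2% in the domain windows and 47.6% in the others.

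**Figure D1:**
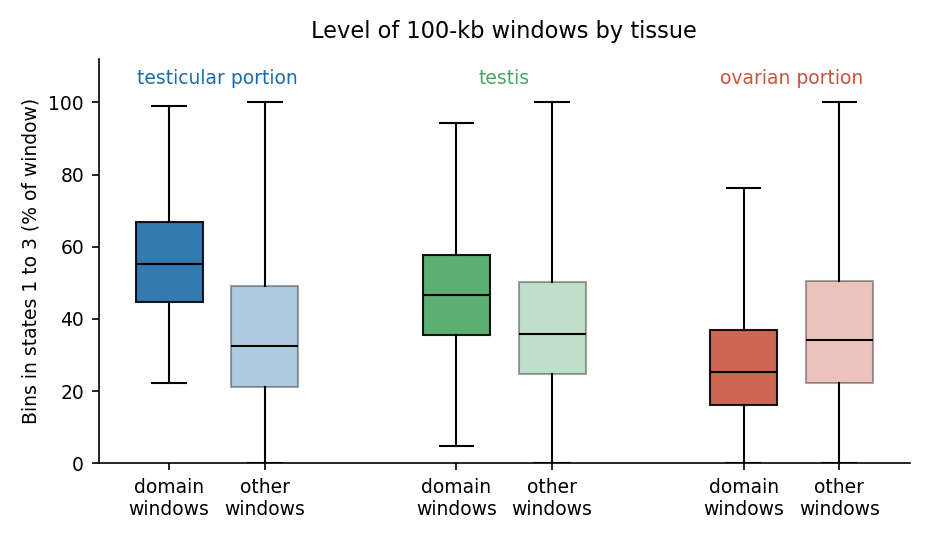
Level of 100 kb windows (percentage of 200 bp bins in states 1 to 3) in each tissue, for the 1758 domain windows and the 17398 other windows. Boxes span the quartiles with the median as a line, and whiskers reach the lowest and highest window. The domain medians are 55.2% in the testicular portion, 46.6% in testis and 25.4% in the ovarian portion.

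The testis usually lay between the portions. It was between them in 1360 of the 1758 windows (77.4%), above the testicular portion in 338 and below the ovarian portion in 60. In 819 domain windows (46.6%, 44.3% to 48.9%) the testis exceeded the ovarian portion by 20 points or more, against 8.91% of all windows. This count shares the ovarian value with the choice of the windows, so it is not independent of it. In 252 domain windows (14.3%) the testicular portion exceeded the testis by that margin, against 3.06% of all windows. The reverse held in 9 domain windows (0.512%), against 2.31% of all windows. The testis exceeded the ovarian portion by some amount in 96.4% of the domain windows, against 56.9% of all windows. Each of these counts also shares the value of a portion with the choice of the windows, so none is independent of it.

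The testis was nearer to the testicular than to the ovarian portion in 69.3% of the domain windows (67.1% to 71.5%), against 61.2% of all windows. This share is not particular to the domains: among the 941 windows in which the ovarian portion was the higher one, the testis was nearer to the testicular portion in 79.5% (76.8% to 81.9%). When each tissue was centred on its own median window, the share was 58.1% in the domains, against 61% of all windows. When windows were chosen by states 1 and 2 with a margin of 5 points, it was 45.6%, against 52.3% of all windows on that measure. Both of these shares were below that of all windows.

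The distance of the testis from each portion grew with the difference between the portions, while the testis level itself did not. From 20 to 25 points to 40 or more, the median distance rose from 15.6 to 29.6 points for the ovarian portion. For the testicular portion it rose from 6.8 to 15.8 points. The testis was nearer the testicular portion in 67.9% and 70.5% of these windows. Both distances use a value that set the bands, so their growth is not independent of the choice. The 698 windows with a difference of 20 to 25 points between the portions had medians of 50.4% in the testicular portion, 46.2% in testis and 28.3% in the ovarian portion. The 183 windows with a difference of 40 points or more had medians of 65% in the testicular portion, 47% in testis and 17.4% in the ovarian portion. The threshold of 20 points fell within a continuous range. The 166 windows just inside it, with differences from 20 to below 21 points, had medians of 49.7% in the testicular portion, 44.8% in testis and 29.4% in the ovarian portion. The 168 windows just outside, from 19 to below 20 points, had 44.9%, 44.5% and 25.4% in the same tissues.

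The difference between the portions was almost wholly a difference between states 3 and 4. State 3 covered 52.3% of the domain windows in the testicular portion, 42.8% in testis and 24.6% in the ovarian portion. State 4 covered 42.8% in the testicular portion, 52.1% in testis and 71.3% in the ovarian portion. Of the 277685 bins open in the testicular portion and closed in the ovarian portion, 99.1% were in state 3 in the testicular portion and in state 4 in the ovarian portion. The share was also 99.1% of such bins in the other windows, so it is not particular to the domains. The bins open in the testicular portion alone made up 31.6% of the domain windows and those open in the ovarian portion alone 2.78%. In the other windows these classes were 9.81% and 11.2%. State 5 covered 1.1% of the domain windows in the testicular portion, 1.05% in testis and 1.33% in the ovarian portion, against 2.21% to 2.4% of the other windows.

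Within the domains, the testis was open at 53.8% of the bins open in the testicular portion alone. At bins open in the ovarian portion alone, it was open at 54.9%. The testis was thus open about as often at bins of the ovarian portion alone, which were few, as at those of the testicular portion alone. In the other windows the corresponding shares were 48.6% and 40.5%. Where both portions were open the testis was open at 86.9% of the bins in the domains and 84.5% elsewhere, and where neither was open at 17% and 12.3%.

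The difference was spread along the windows. When each domain window was divided into 10 parts of 10 kb, the testicular portion exceeded the ovarian portion in a median of 9 parts, and in 8 or more parts in 1599 windows (91%). It did so by 20 points or more in a median of 6 parts. These values of the portions chose the windows, and no share for the other windows is given. The testis exceeded the ovarian portion in a median of 8 parts. Open bins formed more and longer runs in the domains of the testicular portion. There were 13.9 runs per 100 kb with a mean length of 4.05 kb in the testicular portion, 13.6 runs of 3.46 kb in testis and 10.8 runs of 2.53 kb in the ovarian portion. In the other windows the runs numbered 11.4 of 3.27 kb in the testicular portion, 12.1 of 3.21 kb in testis and 11 of 3.53 kb in the ovarian portion. The longest open run in a domain was 72.6 kb, in the testicular portion. The longest in the far more numerous other windows were 338.6 kb in the testicular portion, 162 kb in testis and 396 kb in the ovarian portion. The runs of the portions share their values with the choice of the windows.

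The domains held little of state 1, the state drawn in red, in every tissue. The signal strength of each state is not given in the values used here. State 1 covered 0.433% of the domain windows in the testis and 0.972% of the other windows, a ratio of 0.446. In the testicular portion the shares were 0.36% and 0.96%, and in the ovarian portion 0.286% and 1%. State 1 counts in the level that chose the windows, so the shares of the portions are not independent of the choice. No bin was in state 1 in 801 of the domain windows (45.6%) of the testis, nor in 33% of its other windows. The lower share was present at each testis level: among windows with a testis level from 40% to below 50%, state 1 covered 0.381% of the 407 domain windows and 0.986% of the 2835 others. Among windows from 60% to below 70% it covered 0.729% of 231 domain windows and 1.7% of 1122 others. In the band below 10% the domains had 4 windows, none with state 1. The low share belongs to windows chosen with state 3 included: when windows were chosen by states 1 and 2 alone with a margin of 5 points, the ratio was 2.4. Windows of the opposite direction had 1.5% of their bins in state 1 in the testis, above both.

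**Figure D2:**
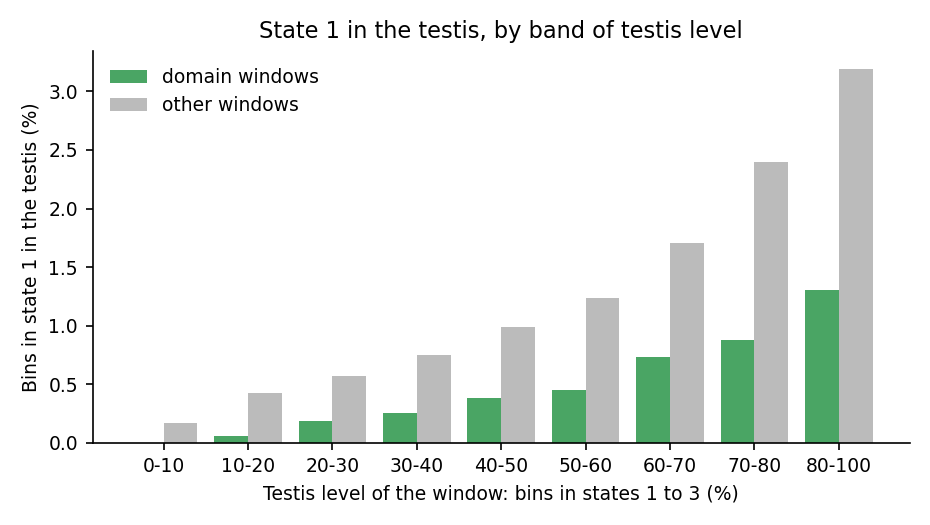
Bins in state 1 in the testis (percentage of all bins) for domain windows and other windows, in bands of the testis level of the window. In each of the 9 bands the bar of the domain windows is the shorter, and the first band holds only 4 domain windows.

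State 1 segments in the domains were also shorter and less often shared between tissues. The testicular portion had 1504 of them, 8.56 per Mb with a mean length of 420.1 bp, against 16.3 per Mb of 587.2 bp in the other windows. The testis had 1981, 11.3 per Mb with a mean of 383.9 bp, against 19 per Mb of 512.7 bp. The ovarian portion had 1194, 6.79 per Mb with a mean of 419.8 bp, against 16.7 per Mb of 602.7 bp. The segments of the portions share their values with the choice of the windows.

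Of the testicular portion segments in the domains, 69.4% (67% to 71.7%) overlapped state 1 in the testis, against 77.4% elsewhere, and 43.5% (41% to 46%) overlapped state 1 in the ovarian portion, against 69% elsewhere. This overlap shares its values with the choice of the windows. A further 38.8% reached state 2 in the ovarian portion, against 25.4% elsewhere, 16.3% reached only state 3, against 5.44%, and 21 segments (1.4%) were closed there, against 60 segments (0.211%) elsewhere. In the testis, 7 of the 21 reached state 1, 10 reached state 2 and 4 reached state 3. The 3 on scaffold 8 lay at 1318001 to 1318400, at 3009401 to 3009600 and at 3095801 to 3096000, all of them in state 1 in the testis as well and all inside the longest domain. A pair on scaffold 9 lay close together, at 83746601 to 83747200 and at 83747801 to 83748200. Of the testis segments in the domains, 35.5% overlapped state 1 in the ovarian portion (33.4% to 37.6%), against 61.3% elsewhere. In that portion 121 were closed (6.11%), against 2.18% elsewhere. Both shares use the ovarian values that chose the windows, so they are not independent of the choice.

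The longest domain lay on scaffold 8 at 900001 to 3300000 and had 24 windows. Its windows ranged from 34% to 93.4% in the testicular portion with a median of 67.4%, from 24% to 85% in the testis with a median of 46.8%, and from 6.4% to 69.6% in the ovarian portion with a median of 20.1%. The ranges of the 3 tissues overlapped, and the testicular portion had the highest median. A single window at 700001 to 800000, separated from it by 1 window, had the largest difference of any domain: 81.4% in the testicular portion, 54.6% in testis and 25.6% in the ovarian portion.

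Next in length were domains of 13 windows on scaffolds 10 and 12. On scaffold 10, at 93900001 to 95200000, the window median was 46% in the testicular portion, 40.4% in testis and 10% in the ovarian portion. The lowest windows of the testicular portion and the testis, 29.4% and 21.2%, were above the highest of the ovarian portion, 19%. On scaffold 12, at 98500001 to 99800000, the medians were 39.4%, 30.4% and 4.6% in the testicular portion, the testis and the ovarian portion, whose windows ranged from 0% to 20.2%. Scaffold 12 held 3 more of the 10 longest domains close by. The domain at 87500001 to 88400000 had mean levels of 41.9% in the testicular portion, 38.5% in testis and 10.8% in the ovarian portion. At 93000001 to 93900000 the means were 46.1%, 40.7% and 9%, and at 95300001 to 96400000 they were 53.9%, 40.5% and 14.1%, in the same order of tissues.

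The other 4 of the 10 longest were 4700001 to 5700000 and 151000001 to 151900000 of scaffold 1, 95600001 to 96500000 of scaffold 11 and 15900001 to 16800000 of scaffold 12. Their mean levels ranged from 41.9% to 52.4% in the testicular portion, from 27.3% to 48% in the testis and from 9.58% to 25.6% in the ovarian portion. The lowest value in each tissue was that of the domain on scaffold 11.

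**Figure D3:**
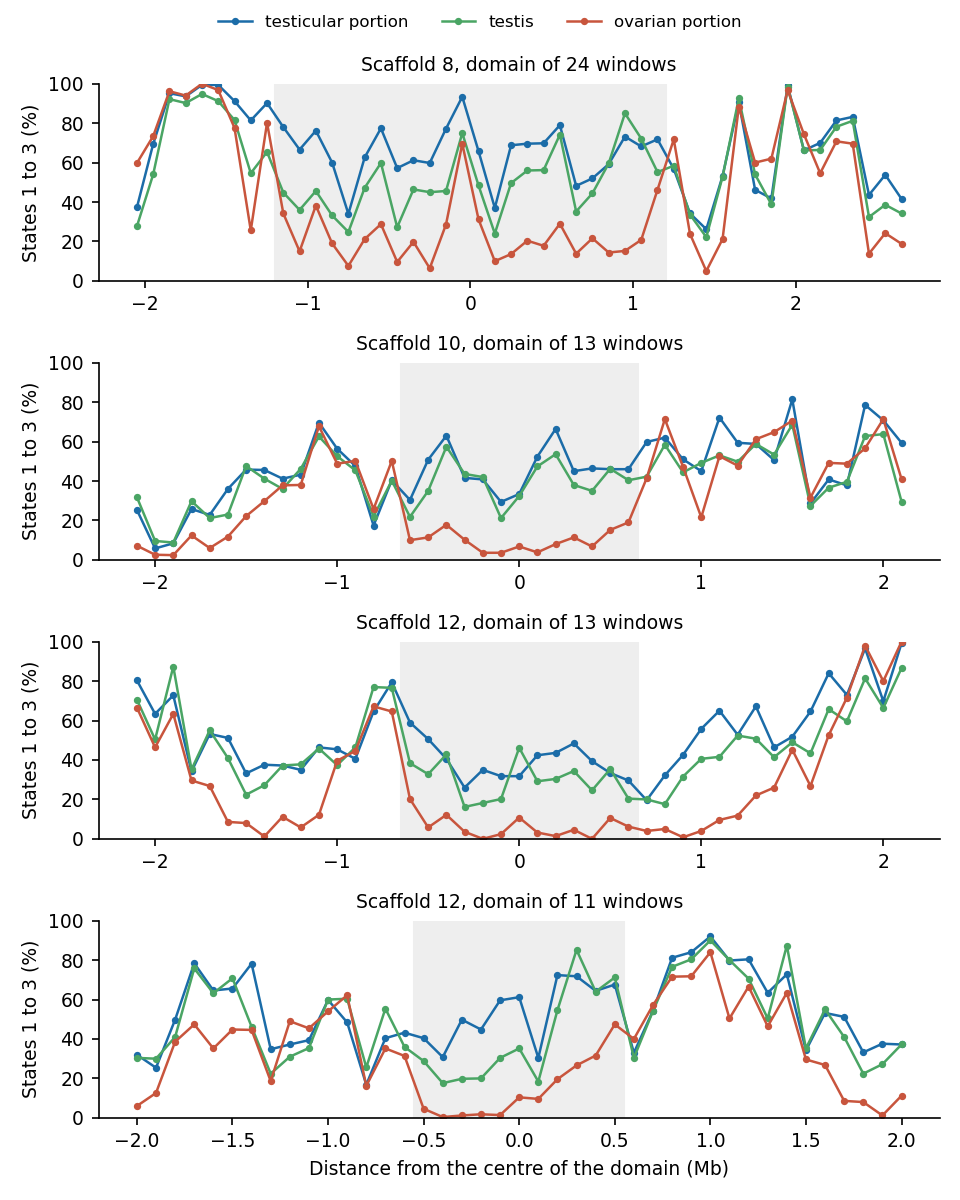
Level of each 100 kb window (percentage of bins in states 1 to 3) in the testicular portion, the testis and the ovarian portion across the 4 longest domains and 1.5 Mb on each side where windows were kept, by distance from the centre of the domain in Mb. Grey marks the domain. In the domain on scaffold 10, the ovarian portion stays between 3.6% and 19% while the lowest windows of the testicular portion and the testis are 29.4% and 21.2%.

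Among the 10 domains with the largest mean difference between the portions, 5 were single windows. After the one on scaffold 8, the largest difference, 49.5 points, was on scaffold 14 at 89800001 to 90000000, with 71.6% in the testicular portion, 18.4% in testis and 22.1% in the ovarian portion. Here the testis lay below the ovarian portion. On scaffold 9, the window at 42200001 to 42300000 had 78% in the testicular portion, 62.4% in testis and 31% in the ovarian portion. On scaffold 1, the 8 windows at 147100001 to 147900000 had means of 67.1%, 56.8% and 20.8% in the same order. The domains at 19900001 to 20300000 of scaffold 13 and 123200001 to 123900000 of scaffold 5 had 64.5% and 59.4% in the testicular portion, 41.2% and 36.1% in testis, and 19% and 14.3% in the ovarian portion. The remaining 4 were 141600001 to 141800000 of scaffold 3, 130900001 to 131000000 of scaffold 4, 104100001 to 104200000 of scaffold 7 and 69600001 to 69700000 of scaffold 12. Their differences between the portions were 44.4 to 45.8 points, and their testis levels 44.3%, 60.6%, 35.8% and 48.6%.

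The place of the testis varied between domains. The mean testis level of a domain was above the ovarian portion in 922 of 951 domains, and by 20 points or more in 425 (44.7%). Among all windows the shares were 56.9% and 8.91%. The share with that margin was 42.3% of the single-window domains and 57.4% of the 61 domains with 5 or more windows. The median difference between the portions was also larger in the latter, 32.3 points against 24.2. All these domain counts share the ovarian value with the choice, so none is independent of it. The 5 domains with the highest testis value relative to the ovarian portion were single windows in which the testis also exceeded the testicular portion. The highest, on scaffold 2 at 131400001 to 131500000, had 51.2% in the testicular portion, 71.8% in testis and 7.6% in the ovarian portion. On scaffold 9 at 64400001 to 64500000 the levels were 62.2%, 88.2% and 29.2%. The other 3 were on scaffolds 4, 5 and 11 at 12100001, 8800001 and 102400001, with testis levels of 63.2%, 78.6% and 86.4%.

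At the other end, 5 domains had a testis level 8.8 to 13 points below that of the ovarian portion. The lowest, on scaffold 7 at 131600001 to 131700000, had 67.4% in the testicular portion, 33.2% in testis and 46.2% in the ovarian portion. On scaffold 14, the 2 windows at 89500001 to 89700000 had means of 84%, 45.7% and 55.5%. They lay 100 kb from the domain at 89800001, whose testis level was also below the ovarian one. The other 3 were single windows on scaffold 2 at 31800001 and 56500001 and on scaffold 4 at 4600001.

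Across the edges of the domains, the level of the ovarian portion differed more than that of the testicular portion, and that of the testis by little. In the 182 domains of 3 or more windows, the mean level over the first 100 kb inside the edge was 56.8% in the testicular portion, 46.1% in testis and 27.9% in the ovarian portion. Over the 100 kb outside it was 48.2%, 45% and 40.3% in the same order. The step from outside to inside was thus 8.55 points in the testicular portion, 1.13 points in testis and -12.5 points in the ovarian portion. The steps of the portions come from the values that chose the windows, and the testis step does not. The median of the 1739 windows next to a domain was 42.2% in the testicular portion, 43.8% in testis and 35.4% in the ovarian portion. The testis median of all windows outside domains, which include these neighbours, was 35.8%. Over all windows the testis median was 46.8% within 10 Mb of a scaffold end and 35.4% farther inside. Whether position on the scaffold has a part in the level of the neighbours was not tested. The testicular portion exceeded the ovarian portion in 79.8% of these neighbours and in 58% of the windows 1 Mb away from a domain.

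**Figure D4:**
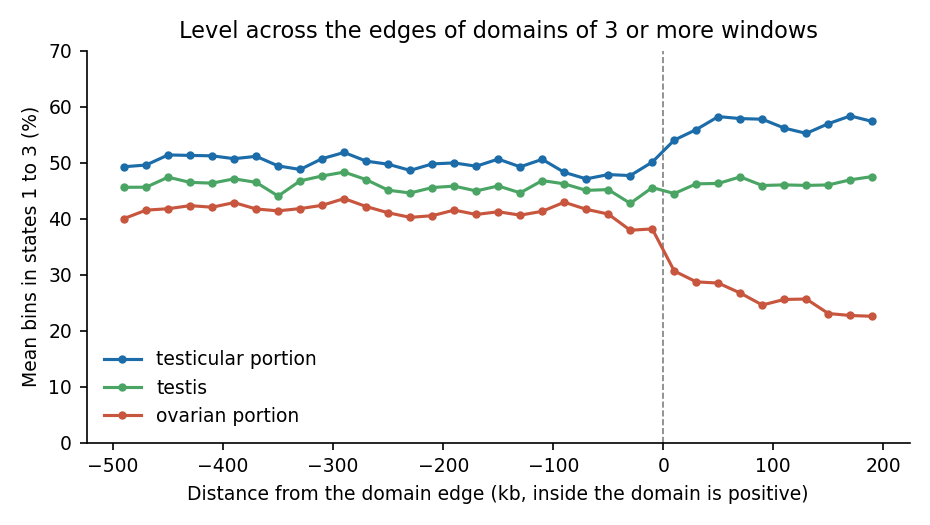
Mean level (percentage of bins in states 1 to 3, in steps of 20 kb) against distance from the edge of the 182 domains of 3 or more windows, with positions inside the domain positive. Each point is the mean over up to 364 edges, with no error drawn. Inside the edge the testicular portion is higher and the ovarian portion lower than outside, and the testis differs by 1.13 points between the 100 kb on each side.

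The domains were concentrated towards the ends of scaffolds, a position the choice did not use. Of the 1758 domain windows, 585 (33.3%, 31.1% to 35.5%) lay within 10 Mb of a scaffold end, against 16.7% of all windows and 14.9% of the 941 windows of the opposite direction. The share of windows that belonged to domains was 31.9% at 1 to 2 Mb from an end, 19.8% at 2 to 5 Mb, 16.1% at 5 to 10 Mb, 10.4% at 10 to 20 Mb, 8.09% at 20 to 40 Mb and 5.17% beyond 40 Mb. In the first 1 Mb it was 11.1%, where the median level of all windows was 81.6% in the testicular portion, 67% in testis and 84.4% in the ovarian portion. Windows of the opposite direction made up 3.56% to 5.75% in these 7 bands. The share within 10 Mb of an end was higher than that of the interior on 15 of the 16 scaffolds. The exception was scaffold 17, with 4% near its ends and 10.7% inside. Scaffold ends need not be chromosome ends.

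The concentration was uneven between ends. The last 10 Mb of scaffold 12 had 50 of 100 windows in domains, the first 10 Mb of scaffold 8 had 39, and the last 10 Mb of scaffold 1 had 32. Only 1 window was in a domain in the first 10 Mb of scaffold 7, in the last 10 Mb of scaffold 13 and in the last 10 Mb of scaffold 17. The level of all windows was also higher near the ends: within 10 Mb the medians were 51.8% in the testicular portion, 46.8% in testis and 43.4% in the ovarian portion, and farther inside 32.6%, 35.4% and 32.4%. Whether the general level has a part in the concentration was not tested.

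The testis level of the domains depended on this position. Beyond 10 Mb from an end, the testis median was 47.6% in the domain windows and 34.4% in the others. Within 10 Mb the order was turned, with 44.2% in the domain windows and 47.6% in the others. In the first 1 Mb the medians were 43% in the 36 domain windows and 71.4% in the others, and at 1 to 2 Mb they were 43.8% in the domain windows and 71.7% in the others. At 2 to 5 Mb they were 44.5% in the domain windows and 48.8% in the others. The order was not turned at 5 to 10 Mb, with 44.2% in the domain windows and 41.4% in the others. The testis level of the domain windows themselves varied little with position, between 43% and 49% over the 7 bands.

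**Figure D5:**
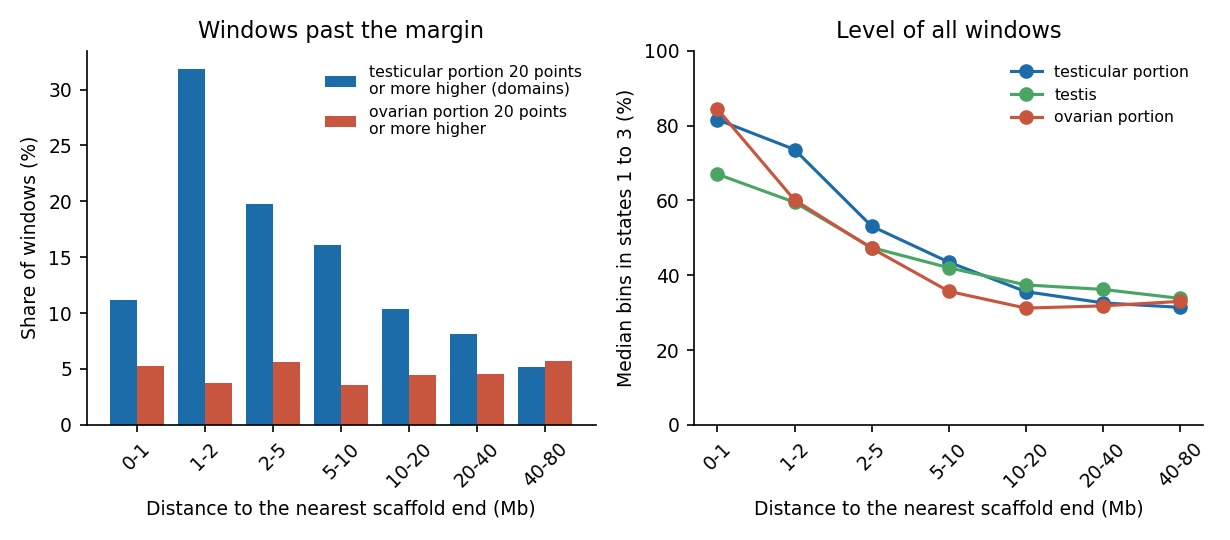
Left, share of windows (%) in which the testicular portion or the ovarian portion is higher by 20 points or more, by distance to the nearest scaffold end in Mb; right, median level of all windows (percentage of bins in states 1 to 3) in each tissue. The share of domain windows is 31.9% at 1 to 2 Mb and 5.17% beyond 40 Mb, while the share of windows of the opposite direction stays between 3.56% and 5.75%.

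Many domains had another domain nearby. With 49.6 domains per 100 Mb of windows, 800 of the 951 (84.1%) had another domain within 1 Mb, and the median distance to the next was 300 kb. In 299 cases (31.4%) a single window separated a domain from its neighbour. The shares expected from the density of domains alone are not given, so closeness beyond that density was not tested. Among the 16 stretches of 5 Mb with most domain windows on each scaffold, 1 per scaffold, the fullest was on scaffold 12 at 95300001 to 100300000, with 36 of 50. Its medians were 45.9% in the testicular portion, 37.3% in testis and 10.5% in the ovarian portion. Next came the first 5 Mb of scaffold 8 with 30 of 50. They were followed by 62800001 to 67800000 of scaffold 9 with 28, 4300001 to 9300000 of scaffold 1 with 27 and 79400001 to 84400000 of scaffold 14 with 24. The stretch on scaffold 9 was far from either end and had medians of 36.3% in the testicular portion, 34.5% in testis and 11.3% in the ovarian portion. In the stretch on scaffold 14 the testis median was nearer to the ovarian portion, with 41.6% in the testicular portion, 27.4% in testis and 22% in the ovarian portion. These stretches were chosen after their values were seen.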

How the data were processed

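ATAC-seq was made from 50000 dissociated cells per reaction, per the labels' protocols. The authors deposited 1 segmentation per tissue, in which column 4 holds the state number, a category that is neither a count nor a score. The segmentation method, whether the tissues share 1 model, and the depth are not given in the sources used here; comparisons take a state to mean the same in each tissue. STAR 2.6.1d and mm9 appear in the submitters' processing notes with no step attached.

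States were expanded to 200 bp bins with Python 3.11.15, numpy 2.4.6 and pandas 2.3.3, and counted per window; intervals are Wilson 95% intervals (scipy 1.17.1) and cover counting error only. Planted domains of a single window, with a difference well above the margin, were recovered on simulated data. Windows near the margin and the joining of adjoining windows were not tried there. The members and lists were chosen with earlier results of these data known. Domains named by position are the 10 largest differences, the 10 longest, and the 5 highest and 5 lowest testis minus ovarian portion differences. The gene lists and named genes were not used, since no annotation on talOcc4 was at hand. Positions are 1-based. The mouse segmentations and the talOcc3 annotation were not used. Positions relative to scaffold ends, domain edges, runs and state 1 segments were added after seeing the data.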

Additional observations from a re-analysis of the deposited data

Results flagged for a closer look

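Windows outside the 16 scaffolds also met the margin. On scaffold 15, 10 of 889 windows did (1.12%, Wilson 95% interval 0.612% to 2.06%), and all of them lay between 86400001 and 88800000, near its far end. The medians over this scaffold were 8.4% in the testicular portion, 7.2% in testis and 19.2% in the ovarian portion, and in 126 windows (14.2%) the ovarian portion was the higher one by 20 points or more. On the shorter scaffolds numbered above 17, 71 of 248 windows met the margin (28.6%, 23.4% to 34.5%) and 0 met it in the opposite direction, against 9.18% and 4.91% on the 16 scaffolds. Their medians were 60.2% in the testicular portion, 52.8% in testis and 37.9% in the ovarian portion. The cause of either pattern was not tested.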

How the results depend on the processing

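Of 89 values recomputed under 12 alternatives, 52 stayed within the limits set, 35 moved and 2 reversed. No paired analysis was possible because each tissue is 1 segmentation of both samples, and for the same reason no replicate could be left out. Values are given here in the order windows, domains, median testis level, share nearer the testicular portion, share with the testis 20 points above the ovarian portion, and share within 10 Mb of a scaffold end. By states 1 and 2 with the margin of 20 points they were 22, 16, 31%, 4.55%, 0% and 22.7%, and the testis median exceeded that of other windows by 27.2 points. By these states with 5 points they were 596, 398, 15%, 45.6%, 0.839% and 44%. State 1 in the testis, at a ratio of 0.446 to other windows as reported, turned to 2.31 and 2.4 under these choices, which leave out state 3. A margin of 10 points gave 4547 windows, 1980 domains, a testis level of 44.2% and shares of 30.3% and 25.8% for the last pair. A margin of 30 points gave 595 and 380, with 61.8% and 41.8%. Windows of 50 kb gave 4371 and 2383, with shares of 66.8%, 49.3% and 29.6%, and windows of 200 kb gave 697 and 414, with 71.7%, 43.2% and 37%. Centring each tissue gave 58.1% and 36.3% for the shares nearer the testicular portion and 20 points above the ovarian portion. With scaffold 15 the testis difference was 12 points. Depth is unknown, so its limit on the levels cannot be given.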
